A study of Homo sapiens with 12 samples.

Results

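The LY6 cluster on the long arm of human chromosome 8 is a run of neighbouring genes for small proteins of the LY6/uPAR family. Its members here were the 9 gene symbols LY6K, LY6D, LY6E, LY6H, LYPD2, LYNX1, SLURP1, PSCA and GML, out of 23676 symbols on the array, and every probe carrying one of them was used (12 probes). LY6K was chosen by its rise with 5-aza-dC in control clones, and the other 8 genes because they lie in the same cluster. The levels that chose LY6K are therefore described without a test. Colo320DM is a human colorectal cancer cell line, from which 6 stable clones were grown under G418 selection. Of these, 3 carried a negative control vector and 3 a vector with an artificial microRNA against TET1, which oxidises methylated cytosines of DNA. RNA of every clone was hybridised from mock-treated cells and from cells kept for 72 h in 1 µM of 5-aza-dC (5-aza-2'-deoxycytidine), which inhibits DNA methyltransferases. The 12 arrays therefore form 4 groups of 3, namely control mock, knockdown mock, control 5-aza-dC and knockdown 5-aza-dC. Each line is 1 clone, so differences between knockdown and control clones also hold the differences between single clones.

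Proteins of the LY6/uPAR family share a compact fold of loops held by disulfide bonds, known as the three-finger fold. Many are anchored to the outer cell surface by a glycolipid (a GPI anchor), and some are secreted and act on nicotinic acetylcholine receptors. Several genes of the cluster are best known from tissues other than the colon, such as testis (LY6K), stratified squamous epithelium (LY6D and SLURP1) and brain (LY6H).

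Levels are given as log2 of the processed signal relative to the 75th percentile of the same array, so a dim probe has a negative level. A probe was called well above background by the scanner software's own flag. Levels of different probes were not compared with each other, since each probe has its own response. The arrays lay on 2 slides, each with its own scan. Slide 1 held 7 arrays, namely all 3 mock knockdown clones, mock control clones 1 and 2, and knockdown clones 1 and 3 after 5-aza-dC. The other 5 were on slide 2, namely all 3 control clones after 5-aza-dC, knockdown clone 2 after 5-aza-dC and control clone 3 after mock. Values with slide as a block, or within a slide, are given where slide moved a result.

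TET1 at its brightest probe (A_33_P3295550) was 4.23 to 4.67 in mock control and 3.51 to 3.59 in mock knockdown clones. After 5-aza-dC it was 4.06 to 4.42 in control clones, and 2.98, 4.31 and 3.35 in knockdown clones 1, 2 and 3. Treated knockdown clone 2 thus lay within the treated control clones at this probe. At A_19_P00806490 and A_23_P322756 the same array lay below them, at 1.02 against 1.99 to 2.37 and at -1.74 against -0.77 to -0.61. LY6K, the LY6E response in knockdown clones and the members whose call changed without this array are given with and without it. Differences of genes outside the cluster are given with it only. Of 8 colorectal epithelial markers, CDX2, KRT8, KRT18 and KRT20 were well above background on all 12 arrays, whereas CDH1 and CEACAM5 were so on 0. The 5 markers of stratified squamous epithelium, KRT5, KRT14, TP63, SPRR1B and IVL, were well above background on 0 of 12 arrays. Of the markers of other cells, COL1A1 and PTPRC were well above background on 12 arrays and PECAM1 on 0. The neuroendocrine markers CHGA, SYP and ENO2 were so on 4, 3 and 11 arrays.

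The probes of the 9 genes stretched over 476 kb of hg19 chromosome 8, from 143763976 at PSCA to 144239812 at LY6H. In order along the chromosome they were PSCA, LY6K, SLURP1, LYPD2, LYNX1 (4 probes), LY6D, GML, LY6E and LY6H. Detection differed widely within the cluster. LY6E and 1 of the 4 LYNX1 probes were well above background on all 12 arrays, SLURP1 on 10, PSCA on 9, and LY6K and GML on 6 each. SLURP1, PSCA and GML were well above background on 7, 7 and 6 of 7 slide 1 arrays, against 3, 2 and 0 of 5 on slide 2. LY6D reached that mark on 1 array, and LYPD2 and LY6H on 0. LY6K was the only member whose detection separated mock from treated arrays, with 0 of 6 against 6 of 6. The control arrays among these chose LY6K, and the share of all probes split this way was not counted, so nothing is read from it.

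**Figure D1:**
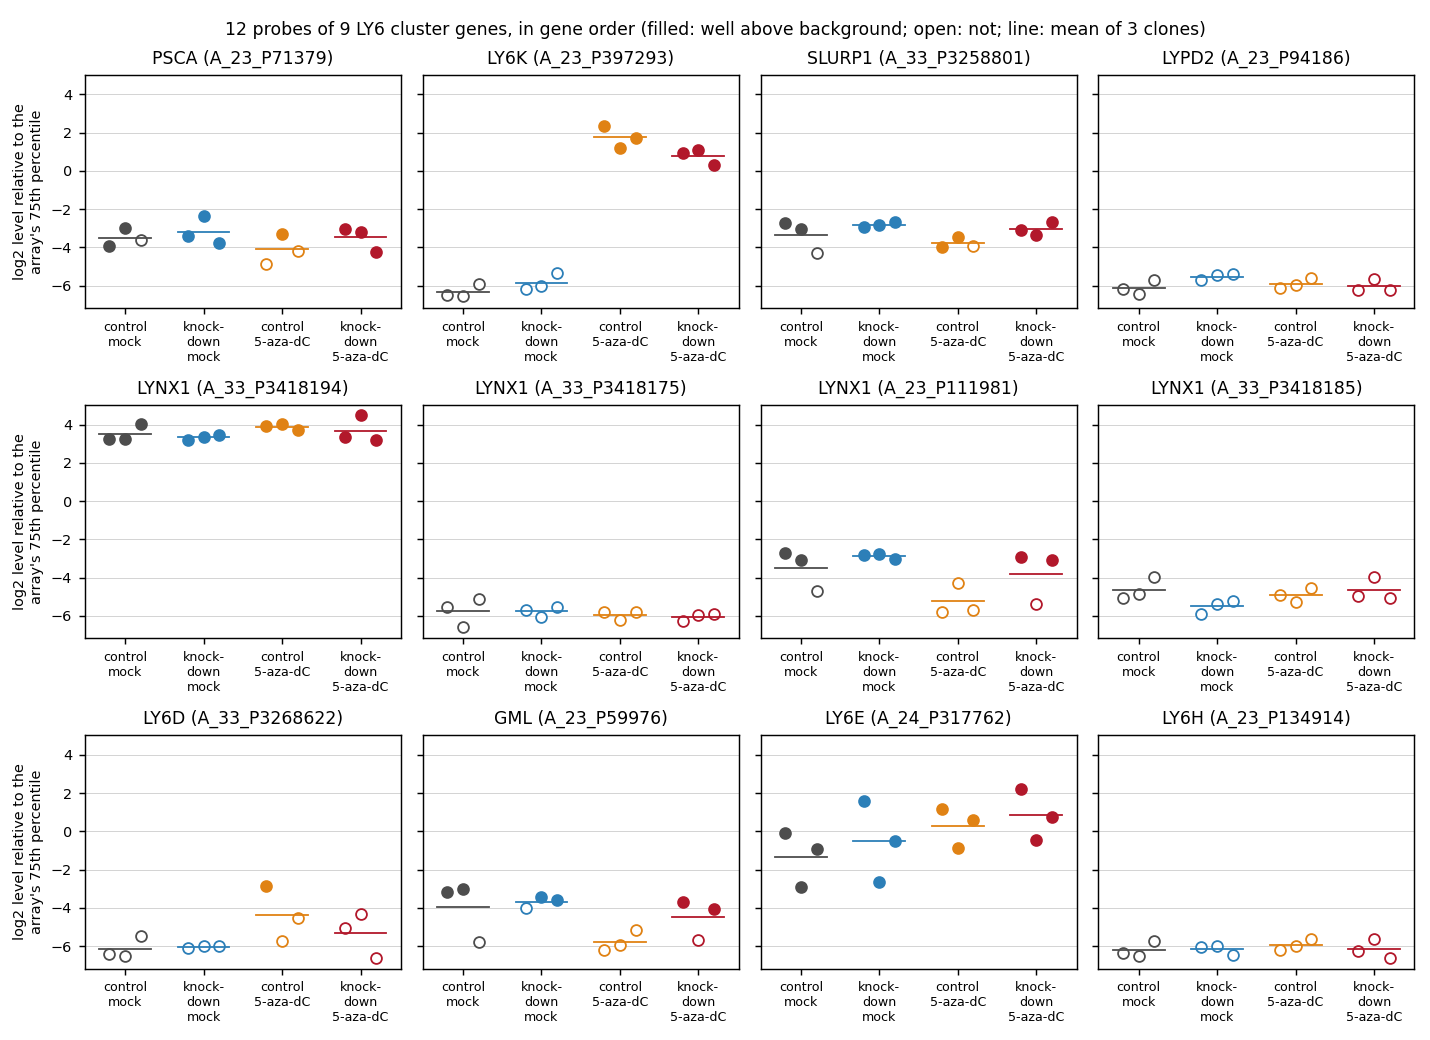
Level of each of the 12 member probes on each array (y axis, log2 relative to the array's 75th percentile) in the 4 groups, in gene order. Filled points were well above background, open points were not, and lines are means of 3 clones. LY6K stands at or below -5.35 on the 6 mock arrays and at 0.31 or above on the 6 treated arrays. No other member shows this step, which in control clones is what chose LY6K.

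LY6K encodes a GPI-anchored protein classed with the cancer-testis antigens, that is, proteins found in testis and in tumours but in few other adult tissues. Its probe A_23_P397293 (hg19 chromosome 8, 143784821 to 143784880) gave -6.47, -6.56 and -5.91 in mock control clones 1, 2 and 3. Knockdown clones after mock gave -6.15, -6.02 and -5.35. All 6 values were not well above background. After 5-aza-dC the control clones gave 2.35, 1.22 and 1.71, and the knockdown clones 0.94, 1.10 and 0.31. In processed signal the mock arrays read 3.6 to 7.56 units, the treated control arrays 706 to 1810 and the treated knockdown arrays 438 to 688. Mock and treated arrays did not overlap in either kind of clone. In RNA from whole cultures, more LY6K RNA per cell and more cells with LY6K RNA cannot be told apart.

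The comparison of treated with mock knockdown clones used other arrays than the contrast that chose LY6K, although its rise there was known from earlier results of these data. Its level was at least 26.1-fold higher after 5-aza-dC (limma, adjusted p = 0.000295). This bound sets the treated mean against the lowest signal among well-measured probes of the mock arrays, because LY6K itself was not measured above background there. The probe passed the filter on dim probes (well above background on at least 3 arrays of the fit) through its 3 treated arrays alone, and in the fit over all probes without that filter the adjusted p was 0.000282. The fitted difference of the means was 6.62 on the log2 scale, which is no measured fold, since the mock values lie at the floor. With slide as a block it was 6.46 (adjusted p = 0.00195), and over the 19 alternatives that tested the probe the adjusted p ran from 2.88e-06 to 0.0157. Background correction by normexp with quantile normalization, which raises dim signals, gave the smallest difference, 3.24. Treated knockdown clone 2 was the only slide 2 array here, so leaving it out is no separate check from the slide block. The difference was again 6.46 (limma, adjusted p = 0.00224, with probes tested if well above background on 2 arrays). Across all probes, 518 were called higher and 3 lower in this comparison, or 2.05% of those tested. Among the marker lists, the epithelial adhesion gene EPCAM was also called higher there (limma, adjusted p = 0.0156), none of the 5 squamous markers could be tested, and the part of any such shift in the LY6K result was not tested.

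In treated against mock knockdown clones, LY6K was the 1 member called among the 6 that passed the filter, beside 2.05% of all probes tested. Without the filter it was the 1 called of all 9 members, beside 657 of 50550 probes. The arrays of 1 of the 6, LY6K, did not overlap, a share near the 19.2% of all probes tested, so nothing is read from it. The other members tested were LY6E, LYNX1, SLURP1, PSCA and GML, and none of them passed (limma, adjusted p between 0.7 and 0.863). Their 95% confidence intervals all included 0.

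In control clones, the contrast that chose it, LY6K was at least 57-fold higher after 5-aza-dC, with a fitted difference of means of 8.08 on the log2 scale. Slide 2 held all 3 treated control arrays and the mock array of control clone 3, and the mean difference within it was 7.67. Clone 3 itself, with both its arrays there, gave 7.62. Normexp with quantile normalization gave 4.15. LY6K was the 1 of 5 members measured there whose mock and treated arrays did not overlap, beside 32.4% of all probes, and nothing is read from that count.

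Per clone, the treated minus mock difference of LY6K was 8.82, 7.78 and 7.62 in control clones and 7.09, 7.11 and 5.66 in knockdown clones. The means were 8.07 ± 0.65 (SD, n = 3) and 6.62 ± 0.83 (SD, n = 3). Every control clone lay above every knockdown clone. Both sets rest on mock values that were not well above background. The treated levels themselves were 1.76 ± 0.57 (SD, n = 3) with the control vector and 0.78 ± 0.41 (SD, n = 3) with the knockdown vectors, so knockdown clones had 0.507 of the control signal (-0.98 on the log2 scale). The 2 groups did not overlap, with the nearest pair at 1.22 and 1.10. Neither did they at 25% of all probes tested in this comparison, so nothing is read from it. Within slide 2, which held these 3 control arrays and 1 knockdown array (clone 2), the difference was -0.67, and without knockdown clone 2 it was -1.14. No test is given, because LY6K was picked for its level in treated control clones.

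**Figure D2:**
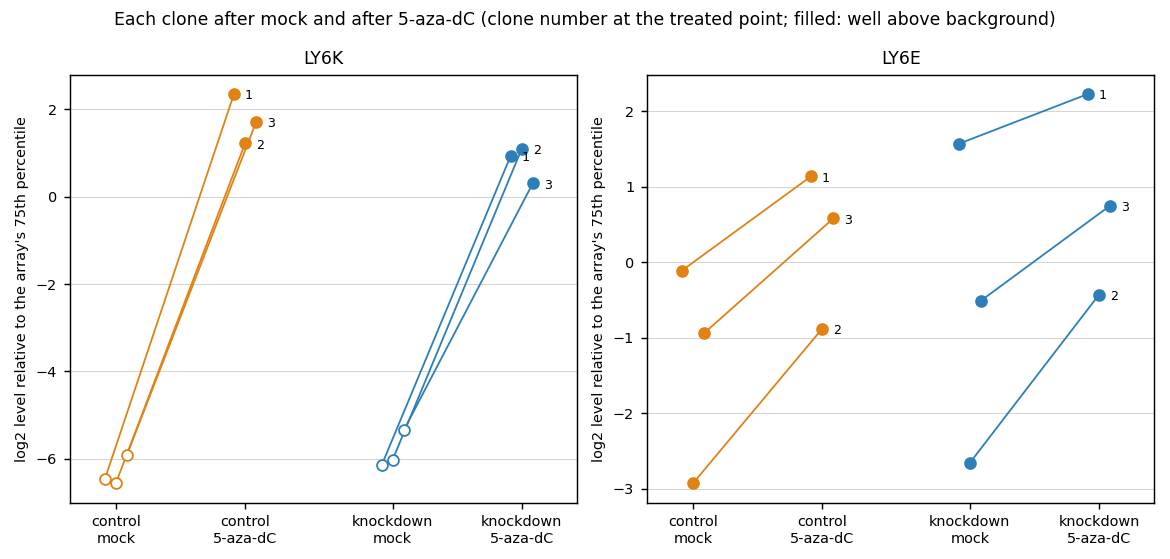
Level of LY6K (left) and LY6E (right) in each clone after mock and after 5-aza-dC (y axis, log2 relative to the array's 75th percentile), with a line per clone, the clone number beside the treated point, and open points for values not well above background. LY6K rises from the background in all 6 clones, by 5.66 to 8.82, and LY6E is higher after treatment in all 6 clones, by 0.66 to 2.24, from starting levels that differ by up to 4.50.

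The genes whose levels followed LY6K most closely over the 12 arrays were TSPYL5 (Pearson's r = 0.998), HSPA1A (0.996), RHOXF2 (0.995), SAP25 (0.994) and DMRTB1 (0.994), out of 16450 genes. The 12 arrays form a mock and a treated set, so r here mostly measures the step between the sets relative to the scatter within them. No p is given. TSPYL5, HSPA1A, RHOXF2 and DMRTB1 were well above background on 0 of 6 mock and 6 of 6 treated arrays, as LY6K was. RHOXF2, an X-linked homeobox gene of the reproductive system, ran from -6.54 to -5.95 on mock and from 3.85 to 5.63 on treated arrays. SAP25, a component of the SIN3 corepressor complex, was well above background on all arrays and went from 0.31 to 1.19 up to 5.02 to 6.24. HSPA1A has a near-identical neighbouring copy, HSPA1B, from which a probe may not tell it apart.

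The genes nearest to LY6K did not take the same step. PSCA, a GPI-anchored antigen first described in prostate, lies at the start of the cluster, 20.8 kb from LY6K (probe to probe). Its probe A_23_P71379 gave -3.94, -3.0 and -3.60 in mock control clones and -3.40, -2.36 and -3.79 in mock knockdown clones. After 5-aza-dC it gave -4.84, -3.29 and -4.16 in control and -3.04, -3.17 and -4.22 in knockdown clones. All 4 groups overlapped, and in knockdown clones the difference between treated and mock was -0.29 (limma, adjusted p = 0.863). The 95% confidence interval, -1.44 to 0.86, does not reach a rise of 1 log2 unit.

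On the other side, 33.4 kb from LY6K, lies a gene that the files call C8orf55 and RefSeq now calls THEM6. It was well above background on all 12 arrays (A_33_P3249748, 143818291 to 143818350). Its level in knockdown clones was 4.35, 4.90 and 4.20 after mock and 4.17, 5.15 and 4.15 after 5-aza-dC, a difference of 0.01 (limma, adjusted p = 0.994). Of the 7 probes of non-members inside the cluster, none of the other 6 was well above background on more than 2 arrays. CYP11B1 and CYP11B2, which encode the last enzymes of cortisol and aldosterone synthesis and lie between GML and LY6E, were so on 0.

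SLURP1, a secreted ligand of nicotinic receptors made by keratinocytes, lies 37.5 kb from LY6K. Its probe A_33_P3258801 gave -2.72, -3.03 and -4.31 in mock control and -2.92, -2.82 and -2.67 in mock knockdown clones. After treatment it gave -4.0, -3.46 and -3.91 in control and -3.09, -3.36 and -2.69 in knockdown clones. Its response to 5-aza-dC in knockdown clones was -0.25 (limma, adjusted p = 0.768, 95% confidence interval -0.82 to 0.33).

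LYNX1 is a GPI-anchored modulator of nicotinic acetylcholine receptors, and the 4 probes with its symbol did not behave alike. A_33_P3418194 and A_33_P3418175 cite transcripts that RefSeq now assigns to SLURP2, a secreted relative, and to the read-through gene LYNX1-SLURP2. Of this pair the first (143845756 to 143845815) was well above background on 12 of 12 arrays and the second (143846092 to 143846151) on 0. A_23_P111981 (143852740 to 143852799) cites LYNX1 itself and was well above background on 7 arrays. A_33_P3418185, which cites the read-through gene alone, was so on 0. The bright signal under the symbol LYNX1 therefore comes from a probe for SLURP2 and the read-through transcript, and the single probe for LYNX1 proper was dim. Member counts and differences given for LYNX1 refer to this bright probe.

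The bright probe gave 3.27, 3.24 and 4.01 in mock control and 3.20, 3.36 and 3.43 in mock knockdown clones. After 5-aza-dC it gave 3.94, 4.05 and 3.70 in control and 3.37, 4.48 and 3.17 in knockdown clones. Its response in knockdown clones was 0.34 (limma, adjusted p = 0.788), and with slide as a block it was -0.06. On slide 1 this probe ran from 3.17 to 3.43 and on slide 2 from 3.70 to 4.48, whatever the treatment or vector.

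The probe for LYNX1 proper went the opposite way between slides. It was well above background on 7 of 7 slide 1 arrays, at -3.10 to -2.73, and on 0 of 5 slide 2 arrays, at -5.77 to -4.28. GML, a GPI-anchored protein whose gene is induced by p53, showed a like split at A_23_P59976, with 6 of 7 slide 1 arrays (-4.06 to -2.99) and 0 of 5 slide 2 arrays (-6.18 to -5.14). SLURP1 also separated, at -3.09 to -2.67 on slide 1 and -4.31 to -3.36 on slide 2. In all, 4 of the 7 member probes that were well above background on at least 3 arrays did not overlap between the slides, beside 26% of all such probes, and C8orf55 did not overlap either (4.15 to 4.90 against 5.15 to 5.79). Slide 2 held 4 of the 6 treated arrays and 1 of the 6 mock arrays, so for these probes treatment and slide are partly mixed. The part of slide in each difference was not tested beyond the values given.

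**Figure D3:**
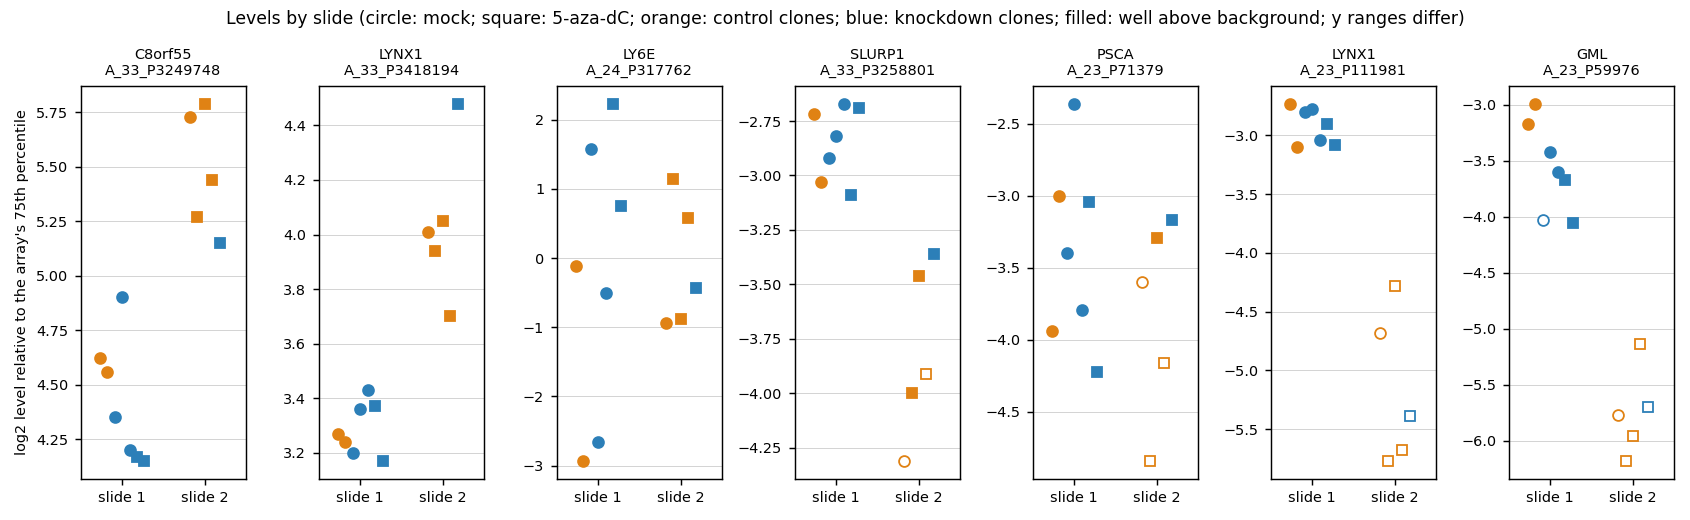
Level of 6 member probes and of C8orf55 on each array (y axes, log2 relative to the array's 75th percentile, with different ranges), split by slide, with mock arrays as circles, treated arrays as squares, control clones orange and knockdown clones blue, and open symbols for values not well above background. C8orf55, both LYNX1 probes shown, SLURP1 and GML do not overlap between slides, while LY6E (-2.93 to 2.23 against -0.94 to 1.14) and PSCA (-4.22 to -2.36 against -4.84 to -3.17) do.

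For GML, mock control clones gave -3.17, -2.99 and -5.77, treated control clones -6.18, -5.96 and -5.14, mock knockdown clones -4.03, -3.42 and -3.60, and treated knockdown clones -3.67, -5.70 and -4.06. In control clones the values not well above background were those of mock clone 3 and all 3 treated clones, the 4 control arrays on slide 2, so no difference was measured there within a slide. In knockdown clones the difference was -0.79 (limma, adjusted p = 0.7), and within slide 1 it was -0.18.

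LY6E encodes a GPI-anchored protein that is induced by interferon and limits the entry of some viruses into cells. At A_24_P317762, whose 60 bases are spread over 192 bases of the genome (144102816 to 144103007), control clones gave -0.11, -2.93 and -0.94 after mock and knockdown clones 1.57, -2.66 and -0.51. After 5-aza-dC the control clones gave 1.14, -0.88 and 0.58 and the knockdown clones 2.23, -0.43 and 0.75. The clones differed by 4.50 log2 units after mock and by 3.11 after treatment, and all 6 clones had the same rank in both conditions. Knockdown clone 1 was highest and control clone 2 lowest.

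All 6 clones had more LY6E signal after 5-aza-dC than after mock. The differences were 1.25, 2.05 and 1.52 in control clones (1.61 ± 0.41, SD, n = 3) and 0.66, 2.24 and 1.26 in knockdown clones (1.39 ± 0.80, SD, n = 3). Control clone 3 and knockdown clones 1 and 3, whose 2 arrays shared a slide, gave 1.52, 0.66 and 1.26. In knockdown clones limma did not call the difference (adjusted p = 0.736, 95% confidence interval -1.37 to 4.15). Leaving out the treated array of knockdown clone 2 gave 2.03 (limma, adjusted p = 0.561). The mock array of that clone (-2.66), the lowest of the mock knockdown arrays, stayed in that fit, so 2.03 also holds differences between clones. With clone and slide both as blocks, which rests on knockdown clones 1 and 3, the difference was 0.96. The mock and treated knockdown clones overlapped, with SDs of 2.12 and 1.33. With clone as a block the unadjusted p was 0.0125 and the adjusted p 0.208, and the alternatives gave adjusted p values from 0.127 to 0.983. No test is given for control clones, where the contrast chose the cluster.

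Of the 15 interferon-induced genes set beside LY6E, 10 could be tested in treated against mock knockdown clones. All 10 had a difference above 0, with a median of 0.67 beside -0.09 over all probes. IFIT2 and IRF7 passed the filter through their treated arrays alone, which favours a difference above 0, so nothing is read from that count. Of the 10, 1 was called, beside 2.05% of all probes. This was IRF7, a transcription factor of the interferon response, at -5.11, -6.00 and -5.22 in mock and -0.35, -2.26 and -0.57 in treated knockdown clones. It was not well above background after mock, and the treated level was at least 7.29-fold higher (limma, adjusted p = 0.0103). It passed the filter through its treated arrays alone, and without the filter the adjusted p was 0.00971. Between knockdown and control clones 10 of the list were tested after mock and 12 after 5-aza-dC, with medians of -0.13 and -0.04, and the only gene called on this list was OAS3, a sensor of double-stranded RNA. It was lower in knockdown clones after mock, at -4.63, -4.54 and -4.40 against -2.29, -1.11 and -1.50 (at least 4.9-fold, limma adjusted p = 0.0465, and 0.0826 without the filter, which it passed through the control arrays alone), and after 5-aza-dC (log2 difference -3.06, limma adjusted p = 0.0459).

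Whether TET1 knockdown altered the cluster was asked in mock and in treated clones. After mock, 0 of 5 members tested were called, and none passed an unadjusted p of 0.05 in limma either. Across all probes 34 were called, or 0.138%. None of the 5 had groups that did not overlap, beside 21.3% of all probes. LY6E had the largest difference, 0.79 (adjusted p = 0.775, 95% confidence interval -2.03 to 3.61). The others lay between -0.18 for LYNX1 and 0.55 for SLURP1. LY6K was not tested here, because it was not well above background on any mock array.

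After 5-aza-dC, 0 of 4 members tested were called, beside 0.0882% of all probes, and LY6K was left out of the count. SLURP1 was the only 1 of the 4 at an unadjusted p under 0.05 and the only 1 whose groups did not overlap, beside 25% of all probes. Its level was 0.74 higher in knockdown clones (limma, adjusted p = 0.228, 95% confidence interval 0.11 to 1.38). It was 0.43 higher within slide 2, where clone 2 was the only treated knockdown array. Treated knockdown clone 2 was the one with TET1 at the control level at its brightest probe. Without it, SLURP1 and the bright LYNX1 probe, which cites SLURP2 and the read-through transcript, were both called. The differences were 0.90 (limma, adjusted p = 0.0392) and -0.63 (limma, adjusted p = 0.0498). That fit sets 2 slide 1 arrays against 3 slide 2 arrays, so slide and knockdown cannot be told apart in it, and 7708 probes were called. Over all alternatives the adjusted p ran from 0.0392 to 0.901 for SLURP1 and from 0.0498 to 0.982 for LYNX1.

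**Figure D4:**
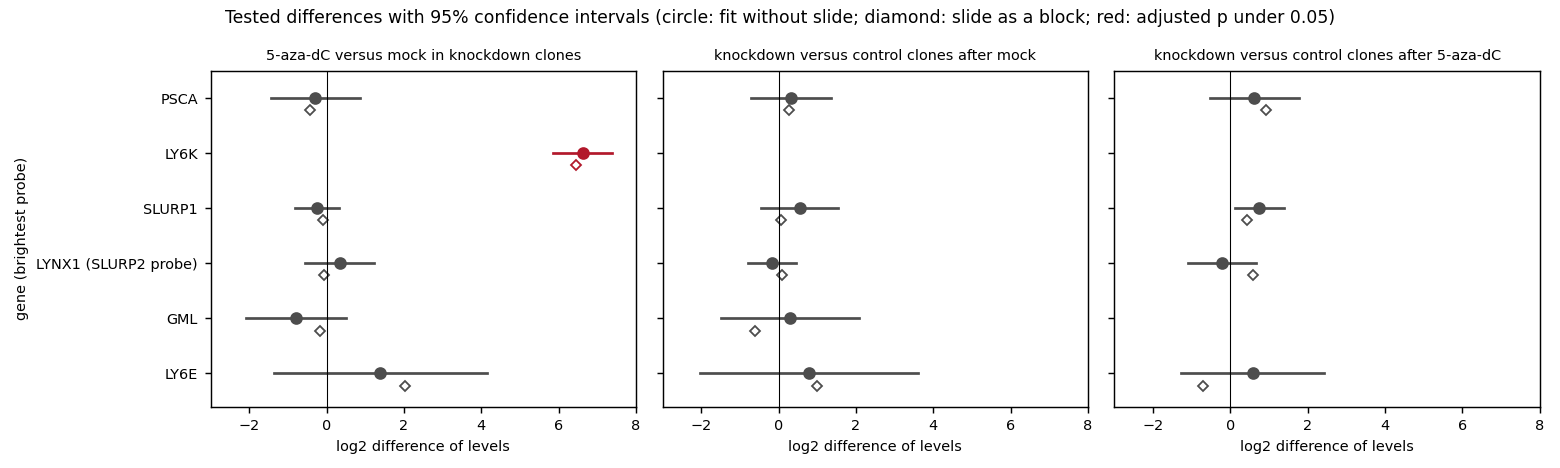
Log2 difference (x axis) of each member tested in 3 comparisons, with 95% confidence intervals from limma on 3 arrays per group. Diamonds give the difference with slide as a block, and red marks an adjusted p under 0.05. LY6K after 5-aza-dC in knockdown clones (6.62) is the only red point, with an interval that rests on mock values at the floor. LY6E has the widest interval in each panel. LYNX1 is shown by its bright probe, which cites SLURP2 and the read-through transcript. The diamonds of LYNX1 fall on the other side of 0 from the circles in all 3 panels.

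LY6D, LYPD2 and LY6H stayed near the background. LY6D, a surface marker of keratinocytes and early lymphoid cells, was well above background in treated control clone 1 only (-2.86), and its other 11 values lay between -6.62 and -4.33. LYPD2, a less studied family member, ran from -6.45 to -5.41, and LY6H, best known from brain, from -6.60 to -5.63. LYPD2 and LY6H thus did not rise well above background on any treated array. At these signals a change below the background could not be measured, so nothing more can be said about the response of these genes.

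Outside the member list, 17 of 18 further LY6/uPAR genes were on the array, of which 4 were well above background on all arrays and 3 on none. No gene of this list was called in the 3 comparisons tested. Of the 9 tested in treated against mock knockdown clones, 4 had a difference above 0, with a median of 0 beside -0.09 over all probes. The medians between knockdown and control clones were 0.05 after mock (10 tested) and -0.03 after 5-aza-dC (8 tested). The 3 brightest of the list were LY6G6D, at 1.13 to 5.05 over the arrays, LYPD6, at -0.20 to 0.98, and CD59, an inhibitor of the complement attack on cells, at -2.38 to -1.48. GPIHBP1, the family's carrier of lipoprotein lipase, lies 59.2 kb beyond LY6H and was well above background on 5 arrays.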

How the data were processed

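The deposited scanner files hold 1-colour intensity for each spot. The authors used Feature Extraction 10.7.3.1. Values as deposited show no normalization between arrays, and any applied later by the authors is not stated in the sources used here. A deposited series table repeats this intensity after rounding (largest difference 0.497%). Control spots and outlier spots (268 to 395 per array) were left out, spots were averaged per probe (50599 probes), and log2 values were centred on each array's 75th percentile. Between 45.7% and 52.87% of probes were well above background per array, and no spot was saturated. Probes with no missing value that were well above background (in at least 50% of spots) on at least 3 arrays of a fit were tested with limma 3.58.1 in R 4.3.3 (lmFit and eBayes, two-sided) on the 2 groups compared, adjusted by Benjamini-Hochberg over all of them, with a threshold of 0.05. A gene was counted by its brightest probe. The script was tested on simulated data.

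A fold is a bound where the dimmer group had no array with the probe well above background. For each dim array, the lowest signal that any well-measured probe had there, or the probe's own signal if larger, stood for the unmeasured level. P-values measure the spread between clones, and the number of arrays limits the precision. The fit reported did not pair the mock and treated arrays of a clone. With clone as a block, the p-value of treated against mock rests on the spread of the clones' differences instead. The same number in mock and treated arrays marks the same clone, whose deviations from the group means correlated at 0.431 to 0.525 in knockdown and 0.213 to 0.316 in control clones (27200 probes). Clones of unlike vectors with one number are not related. The labels do not tie a vector to each knockdown clone.

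Named were all members, by every probe, the neighbours that were tested or on which a result turns, the 5 genes most like LY6K, TET1, and from fixed lists the genes called and the 3 brightest LY6/uPAR genes. Members and lists were chosen with earlier results of these data known. Coordinates are from the files (hg19), and RefSeq names from a table of GRCh38.p14 that held the accessions of all 12 member probes. No sequence was used. The alternatives were quantile normalization, normexp (offset 50) with quantile normalization, 2 other scales (the median, and the percentile over probes bright on all arrays), the series table, outlier spots kept, slide and clone as blocks, 2 other filters (none also for IRF7 and OAS3, added after seeing the data), a fit of every group, the methods' t-test, and leaving out each array.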

Additional observations from a re-analysis of the deposited data

How the results depend on the processing

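Of 15 results on single members in the 3 comparisons tested, 9 changed sign under some alternative, none of them with a difference called in the setting reported, and LY6K was called wherever it was tested. LY6K could not be tested in knockdown clones under the filter on every array or without any 1 treated array, since it then met the filter on too few arrays; the count of called members there was 0. With the filter at 2 arrays, chosen after seeing the data, it was called again, at 6.46 to 6.86. Leaving out 1 array gave 0 to 1 called members in that comparison, and 0 to 2 between treated clones (2 without treated knockdown clone 2, when each slide holds 1 group). In control clones the LY6K difference was 4.15 with normexp and otherwise 7.62 to 8.35.

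With slide as a block, the difference turned for LYNX1 in knockdown clones (-0.06, or -0.05 with the clone as well) and for LYNX1 and GML after mock (0.08 and -0.60). After 5-aza-dC, where clone 2 was the only knockdown array on slide 2, it turned for LY6E and LYNX1 (-0.70 and 0.59). When all 12 arrays were fitted together with the slide block it turned for SLURP1 in knockdown clones (0.07), LYNX1 and GML after mock (0.15 and -0.46) and LYNX1 after 5-aza-dC (0.43). Leaving out 1 array gave -0.06 to 0.59 for LYNX1 and -0.59 to 0.12 for PSCA in knockdown clones. After mock it gave -0.26 to 1.86 for LY6E, -0.31 to 0.08 for LYNX1, -0.08 to 0.63 for PSCA and -0.60 to 0.79 for GML. After 5-aza-dC it gave -0.11 to 1.21 for LY6E and -0.63 to 0.03 for LYNX1. In knockdown clones and after mock, only 1 array lay on slide 2. There the slide block gives the same difference as leaving that array out, so these are not separate checks. The cause was not tested beyond these settings.

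With the replicate block, which pairs the 2 arrays of a clone, 1 member was called in knockdown clones, LY6K at 6.62 (limma, adjusted p = 0.00503), and the block changed no other call. Over all probes it called 601 in place of 521. Between control and knockdown clones a shared number pairs nothing (correlations of -0.029 to 0.089); there the block called 0 members and 20 in place of 34 probes after mock and 7 in place of 22 after 5-aza-dC. Signals near the background limit PSCA, SLURP1, GML, LY6D, LYPD2 and LY6H.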
